A study of Homo sapiens with 9 samples.

Results

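The genes described here are PARP9, PARP10, PARP11, PARP12, PARP14, ZC3HAV1 (ZAP, also called PARP13), TIPARP (PARP7) and DTX3L, 8 of the 60605 genes in the deposited table. They were chosen by symbol as the ADP-ribosyltransferases that transfer single ADP-ribose units or none and are known as interferon-induced, together with DTX3L, the E3 ubiquitin ligase that binds PARP9. Each symbol had 1 row. RNA-seq of poly(A)+ RNA was carried out in TE13, an established esophageal squamous cell carcinoma (ESCC) cell line. One group was transfected with a control siRNA and the others with an siRNA to PARylator, siRNA.1 or siRNA.2, and each of the 3 groups has 3 libraries, 9 in all. No group received interferon according to the labels. PARylator is the lncRNA encoded by LINC00885, and all groups share the cell line and a transfection. The model is 1 cell line with 1 control siRNA, and the dose and time after transfection are not given in the sources used here. The series describes the libraries of a group as biological replicates and says no more on separate cultures, so the p-values measure the spread between these libraries, which may be in part technical.

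PARP enzymes use NAD+ to attach ADP-ribose to proteins and nucleic acids. PARP1 and the tankyrases build chains, while most of the family adds a single unit, and macrodomain proteins bind or remove these marks. Interferon acts through JAK kinases on transcription factors that bind the interferon-stimulated response element (ISRE), and several mono-ADP-ribosyltransferases are among the genes induced in this way, with roles in antiviral defence and in feedback on the response.

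Promoter sequences are described first, by the letters next to the start sites of the genes. RefSeq windows on GRCh38.p14, from 250 bases before to 50 bases after a start, matched 7 of the 8 genes by symbol, all but PARP10, with 2 windows for PARP9, 3 for TIPARP and 1 for each of the others. They were searched on both strands for the ISRE core GAAANNGAAA, the gamma-activated site (GAS) core TTCNNNGAA and the aryl hydrocarbon receptor (AHR) core GCGTG. Of 35116 windows of the same length, 3.57% held the ISRE core, 7.66% the GAS core and 36.5% the AHR core. The ISRE core was found at PARP9, DTX3L, PARP12 and PARP14. PARP9 has starts at 122564300 and 122564784 in its 2 windows, and its deposited 5′ end is at 122564577. The start at 122564300 lies head to head with that of DTX3L, 38 bases away. The other positions lie inside DTX3L, and from them the ISRE core is downstream. Positions given below for PARP9 count from 122564300. The match of PARP9 and DTX3L is a single stretch of DNA read from either strand. It is shown here with PARP12 and PARP14, 30 bases each, 5′ to 3′ along the strand of the gene, with the motif letters in capitals.
PARP9, chr3:122564322-122564351, minus strand, from -51 to -22: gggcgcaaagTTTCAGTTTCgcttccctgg
DTX3L, chr3:122564322-122564351, plus strand, from -16 to 14: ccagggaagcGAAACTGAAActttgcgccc
PARP12, chr7:140062942-140062971, minus strand, from -20 to 10: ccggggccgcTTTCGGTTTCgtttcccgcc
PARP14, chr3:122680794-122680823, plus strand, from -45 to -16: gagttTTCCAGGAAacGAAAGCGAAAgagt
In PARP14 the first run of capitals is a GAS core and the second the ISRE core, which do not overlap.

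The windows of ZC3HAV1, TIPARP and PARP11 held no ISRE core by these letters, nor did the second window of PARP9. The ZC3HAV1 window was set at 139109720 and the most upstream TIPARP window at 156674590, both inside the deposited genes. The outer 5′ ends of these genes, at 139132122 and 156673235, were not searched. ZC3HAV1 had 1 GAS core and 2 AHR cores. TIPARP, a known target of the aryl hydrocarbon receptor, had 2 AHR cores in the most upstream of its windows, both on the opposite strand and therefore read as the reverse complement. PARP11 and PARP12 had 1 AHR core each.
ZC3HAV1, chr7:139109806-139109835, minus strand, from -115 to -86: gggtctgctctTTCCGGGAAtgggtggggt
TIPARP, chr3:156674369-156674398, plus strand, from -221 to -192: acgcgagaaaggaCACGCcccctcgcggga
TIPARP, chr3:156674435-156674464, plus strand, from -155 to -126: tcgaacgaacgcgCACGCgcgcgcaggggg
Among all tested genes with a window, 469 had the ISRE core and 11411 did not. With siRNA.1, 35.8% of the former and 19.3% of the latter were called higher than control. The shares with siRNA.2 were 34.8% and 20.6%. For the GAS core they were 20.8% with and 19.8% without under siRNA.1, and 20.2% and 21.2% under siRNA.2. For the AHR core they were 20.8% and 18.8% under siRNA.1, and 22.5% and 19.4% under siRNA.2. These are descriptions of letters in a fixed window and not of bound sites. Whether the motifs bear on the changes below was not tested.

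Library totals lay between 15337917 and 22559998 counts on genes. LINC00885, the targeted transcript, was at low counts, with 6, 7 and 12 counts in the control libraries, 4, 5 and 2 with siRNA.1, and 2, 0 and 4 with siRNA.2. The fitted log2 fold changes of -1.21 ± 0.945 (SE) and -2.33 ± 1.01 did not pass the test (edgeR adjusted p = 0.376 and 0.0659), so the labels could not be checked by it at this depth. The paper reports PARylator knockdown by siRNA in TE13 cells as measured by qPCR. Whether that was in the cultures sequenced here is not stated. All 8 squamous epithelial markers were expressed, with sums between 697.7 and 711.2 FPKM in control, 623.0 and 645.4 with siRNA.1, and 610.9 and 628.9 with siRNA.2. Of these 8 markers, 2 were called higher and 4 lower with each siRNA. Over all genes the shares were 15.0% and 15.2% with siRNA.1, and 15.8% and 15.1% with siRNA.2. KRT6A and EPCAM were higher with both siRNAs, and KRT5 and CDH1 were among those lower with both. FPKM scales a count to the length of the exons and to sequencing depth. Of 10 blood cell markers, 5 were high enough to test. With siRNA.1, PTPRC, LYZ, CD68 and CSF1R were called higher (15.0% of all genes were) and CD14 did not pass, and with siRNA.2 PTPRC, LYZ, CD14 and CSF1R were (15.8% of all genes) and CD68 did not pass. Their sum lay between 0.87 and 1.44 FPKM in control, 4.55 and 5.0 with siRNA.1, and 4.5 and 5.1 with siRNA.2, mostly through LYZ, while MS4A1 was at 0 in every library and CD3E and CD2 reached no more than 1 count. Of 8 fibroblast and endothelial markers, the 3 tested (COL1A1, CDH5 and VWF) were called lower with both siRNAs. Of all genes, 15.2% were called lower with siRNA.1 and 15.1% with siRNA.2. The fibroblast and endothelial list summed to no more than 3.75 FPKM in any library. The mitochondrial share of counts was between 7.46% and 7.66% in control, 4.99% and 5.06% with siRNA.1, and 5.54% and 5.56% with siRNA.2. The part of these shifts in the results below was not tested, and in bulk RNA fewer cells of a type and less RNA per cell cannot be told apart.

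The first comparisons asked how the 8 genes differed from control after each PARylator siRNA. PARP9, DTX3L, PARP14, PARP10, PARP12 and TIPARP rose with both siRNAs, by between 1.24-fold and 2.10-fold with siRNA.1 and between 1.20-fold and 1.91-fold with siRNA.2. PARP11 fell with both, and ZC3HAV1 fell with siRNA.1, so not all of the genes known as interferon-induced were higher. With siRNA.1, 6 of 8 were called higher and 2 lower, where the background over all 21395 tested genes was 15.0% higher and 15.2% lower. With siRNA.2, 6 were called higher, 1 lower and 1 was not called, against 15.8% and 15.1% of all genes. The median log2 fold change of the 8 was 0.57 for siRNA.1 and 0.43 for siRNA.2, and that of all genes was -0.0006 and 0.004. The test was edgeR's quasi-likelihood test with Benjamini-Hochberg adjustment over all genes at 0.05. With DESeq2, which the paper names as its test, ZC3HAV1 was also called with siRNA.2 (DESeq2 adjusted p = 0.0466). Both comparisons share the control libraries, and the 8 genes include an adjoining pair, so these counts are not independent observations.

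**Figure D1:**
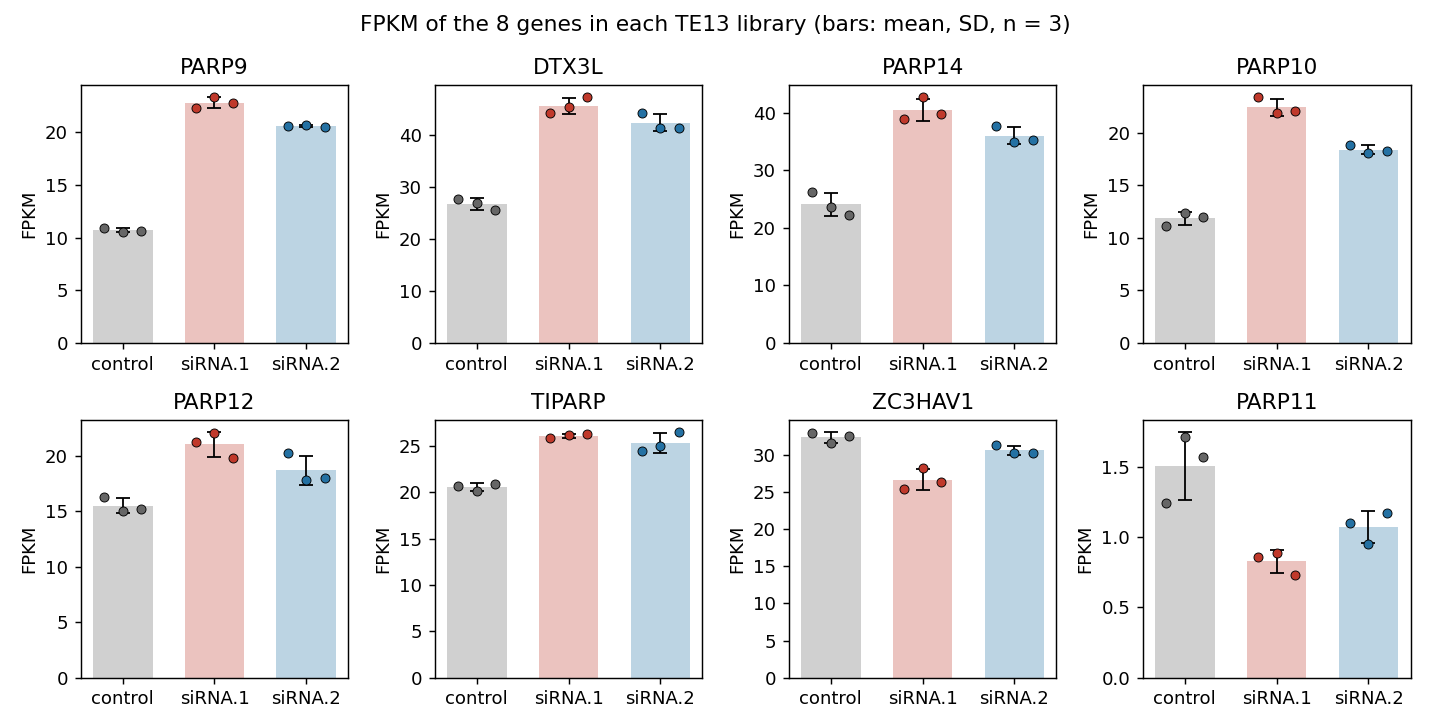
FPKM of each gene (vertical axis, from 0) in the 9 libraries, with 3 points per group, the bar at the group mean and the error bar at 1 SD. PARP9, DTX3L, PARP14, PARP10, PARP12 and TIPARP lie higher in all siRNA libraries than in any control library, and ZC3HAV1 and PARP11 lie lower. The share of all genes that separate in this way was not counted. The separation, here and in the text on each gene, is therefore not read as particular to these genes. The share of genes called by edgeR is a different measure and does not replace that count. Of all tested genes, 15.0% were called higher and 15.2% lower with siRNA.1, and 15.8% and 15.1% with siRNA.2.

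PARP9 and DTX3L form a complex in which DTX3L supplies the ubiquitin ligase and PARP9 macrodomains that bind ADP-ribose, and the complex is known to act in the interferon response. PARP9 (ENSG00000138496, chr3:122527924-122564577, minus strand) rose most among the 8 genes. It was at 10.88, 10.49 and 10.66 FPKM in the control libraries, 22.34, 23.32 and 22.76 with siRNA.1, and 20.60, 20.69 and 20.51 with siRNA.2. The 3 groups did not overlap, and the control libraries were the lowest. The log2 fold change was 1.07 ± 0.0507 (SE) for siRNA.1 and 0.94 ± 0.0505 for siRNA.2 (edgeR adjusted p = 7.29e-96 and 1.62e-74).

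DTX3L (ENSG00000163840, chr3:122564338-122575203, plus strand) was measured at 27.70, 26.77 and 25.47 FPKM in control, 44.19, 45.29 and 47.17 with siRNA.1, and 44.13, 41.34 and 41.34 with siRNA.2. All siRNA libraries were above all control libraries, while the highest siRNA.2 library came just below the lowest siRNA.1 library. It rose by a log2 fold change of 0.75 ± 0.0466 with siRNA.1 and 0.65 ± 0.0464 with siRNA.2 (edgeR adjusted p = 1.17e-55 and 3.60e-43). The annotated gene bodies of PARP9 and DTX3L overlap by 240 bases on opposite strands and share 139 exonic bases, 1.56% of PARP9 exonic length and 2.41% of that of DTX3L, and whether counting used strand is not given in the sources used here.

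Per unit length DTX3L was the more abundant partner in every library. The ratio of DTX3L to PARP9 FPKM was 2.50 ± 0.0924 (SD, n = 3) in control, 2.00 ± 0.0671 under siRNA.1 and 2.05 ± 0.0785 under siRNA.2. Its libraries in control lay between 2.39 and 2.55, above the siRNA.1 and siRNA.2 libraries, which lay between 1.94 and 2.14. An exact two-sided permutation test gave p = 0.1 for each siRNA against control, the smallest that 3 libraries against 3 allow. Between the siRNAs the ratio differed by 0.0547 (exact p = 0.5).

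PARP14 is a large mono-ADP-ribosyltransferase with macrodomains that is known as a cofactor of STAT6 and as a modulator of interferon responses. It lies downstream of DTX3L on the same chromosome (ENSG00000173193, chr3:122680839-122730840, plus strand), 105.6 kb beyond it. PARP14 was at 26.25, 23.65 and 22.31 FPKM in control, 39.01, 42.71 and 39.75 with siRNA.1, and 37.68, 35.00 and 35.27 with siRNA.2. The groups did not overlap, with control lowest and siRNA.1 highest. It rose by a log2 fold change of 0.72 ± 0.0423 with siRNA.1 and 0.57 ± 0.0422 with siRNA.2 (edgeR adjusted p = 3.59e-63 and 1.85e-39). The ratio of PARP14 to PARP9 FPKM was 2.25 ± 0.160 (SD, n = 3) in control, 1.77 ± 0.0491 under siRNA.1 and 1.75 ± 0.0724 under siRNA.2. Its exact permutation p was 0.1 for each siRNA against control, again the smallest possible with 3 libraries per group.

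PARP10 is a mono-ADP-ribosyltransferase of the cytoplasm and nucleus (ENSG00000178685, chr8:143977153-144012772, minus strand). It was at 11.13, 12.41 and 12.02 FPKM in control, 23.40, 21.89 and 22.04 with siRNA.1, and 18.86, 18.04 and 18.24 with siRNA.2. The groups were separate, with siRNA.2 between control and siRNA.1. PARP10 rose by a log2 fold change of 0.89 ± 0.0564 with siRNA.1 and 0.62 ± 0.0563 with siRNA.2 (edgeR adjusted p = 2.15e-54 and 1.61e-26). It shares 324 exonic bases, 5.37% of its exonic length, with GRINA on the opposite strand. GRINA also rose, by a log2 fold change of 0.46 with siRNA.1 and 0.29 with siRNA.2 (edgeR adjusted p = 1.22e-19 and 3.86e-08), and without strand their reads cannot be told apart in that stretch.

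PARP12 carries CCCH zinc fingers that bind RNA and localises to the Golgi and to stress granules. PARP12 (ENSG00000059378, chr7:140023749-140062951, minus strand) was at 16.34, 15.00 and 15.25 FPKM in control, 21.25, 22.05 and 19.85 with siRNA.1, and 20.24, 17.87 and 18.00 with siRNA.2. Every siRNA library was above every control library, and the siRNA groups overlapped each other. The log2 fold change was 0.41 ± 0.0563 for siRNA.1 and 0.26 ± 0.0561 for siRNA.2 (edgeR adjusted p = 6.03e-12 and 3.54e-05).

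TIPARP (PARP7) is a mono-ADP-ribosyltransferase induced by the aryl hydrocarbon receptor, on which it acts in negative feedback, and it also restrains type I interferon signalling. TIPARP (ENSG00000163659, chr3:156673235-156706770, plus strand) was at 20.73, 20.14 and 20.90 FPKM in control, 25.81, 26.22 and 26.24 with siRNA.1, and 24.43, 24.96 and 26.51 with siRNA.2. All siRNA libraries were above control, and the siRNA.1 libraries lay within the range of siRNA.2. TIPARP rose by a log2 fold change of 0.31 ± 0.0544 with siRNA.1 and 0.29 ± 0.0540 with siRNA.2 (edgeR adjusted p = 9.55e-08 and 1.04e-06). The antisense TIPARP-AS1, which shares no exonic bases with it, had between 2 and 15 counts per library.

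ZC3HAV1 encodes ZAP, an antiviral RNA-binding protein without ADP-ribosyltransferase activity that targets CpG-rich RNA for decay. ZC3HAV1 (ENSG00000105939, chr7:139043515-139132122, minus strand) was at 32.99, 31.57 and 32.60 FPKM in control, 25.44, 28.20 and 26.41 with siRNA.1, and 31.36, 30.28 and 30.34 with siRNA.2. The siRNA.1 libraries were the lowest, and the siRNA.2 libraries came close below control without overlap. It fell with siRNA.1, with a log2 fold change of -0.31 ± 0.0447 (edgeR adjusted p = 1.08e-10). With siRNA.2 the log2 fold change was -0.09 ± 0.0442 with a 95% interval from -0.18 to -0.0039, and edgeR's adjusted p was 0.112. DESeq2 gave -0.10 with an adjusted p of 0.0466.

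PARP11 is a mono-ADP-ribosyltransferase linked to the nuclear envelope that modifies a ubiquitin ligase acting on the interferon receptor. PARP11 (ENSG00000111224, chr12:3791047-3873448, minus strand) had the lowest level of the 8 genes, with between 79 and 174 counts per library. It was at 1.24, 1.71 and 1.57 FPKM in control, 0.86, 0.89 and 0.73 with siRNA.1, and 1.10, 0.95 and 1.17 with siRNA.2. Control libraries were higher than all siRNA libraries, though the lowest of them came near the highest siRNA.2 library. It fell by a log2 fold change of -0.89 ± 0.170 with siRNA.1 and -0.50 ± 0.161 with siRNA.2 (edgeR adjusted p = 1.41e-06 and 0.00817). The siRNA.2 call was lost without control replicate 2 (log2 fold change -0.41, edgeR adjusted p = 0.084) or without siRNA.2 replicate 2 (-0.43, 0.0593), and with limma on log2(FPKM + 0.1) (-0.45, 0.0764).

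**Figure D2:**
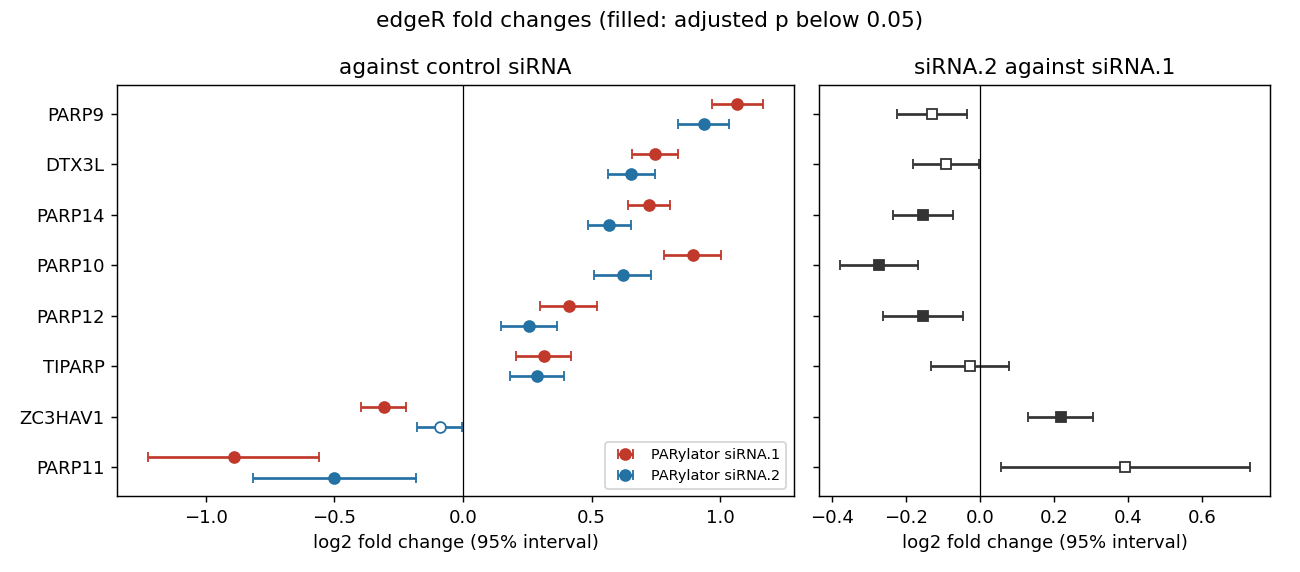
log2 fold change of each gene (horizontal axis) with its 95% interval, for both siRNAs against control on the left and siRNA.2 against siRNA.1 on the right, with filled symbols for an adjusted p below 0.05 by edgeR. PARP9 has the highest fold change with both siRNAs (1.07 and 0.94), and PARP10, PARP12, PARP14 and ZC3HAV1 are filled on the right.

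In control cells, the order per unit length ran from ZC3HAV1 at 32.4 ± 0.734 FPKM (SD, n = 3) through DTX3L (26.7), PARP14 (24.1), TIPARP (20.6), PARP12 (15.5), PARP10 (11.9) and PARP9 (10.7) to PARP11 at 1.51 ± 0.241. The libraries of neighbours in this order were separate apart from those of DTX3L and PARP14. With siRNA.1, DTX3L (45.6) and PARP14 (40.5) came first, ZC3HAV1 (26.7) came next and overlapped TIPARP (26.1), and PARP9 (22.8), PARP10 (22.4) and PARP12 (21.1) overlapped as neighbours. With siRNA.2, the order was DTX3L, PARP14, ZC3HAV1, TIPARP, PARP9, PARP12, PARP10 and PARP11, and the overlapping neighbours were PARP12 and PARP10. The 8 genes summed to 143.3 ± 3.52 FPKM in control, 205.9 ± 4.25 with siRNA.1 and 193.0 ± 4.84 with siRNA.2.

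The direct comparison asked whether the siRNAs differed from each other. With siRNA.2, PARP10, PARP12 and PARP14 were lower than with siRNA.1 and ZC3HAV1 was higher, so 3 of 8 were called lower and 1 higher, against a background of 6.06% lower and 6.10% higher over all genes. The log2 differences of siRNA.2 from siRNA.1 were -0.27 ± 0.0539 for PARP10, -0.15 ± 0.0549 for PARP12, -0.15 ± 0.0415 for PARP14 and 0.22 ± 0.0445 for ZC3HAV1 (edgeR adjusted p = 1.60e-05, 0.0424, 0.00323 and 3.46e-05). The PARP12 call was lost without siRNA.1 replicate 1 or 2 or without siRNA.2 replicate 2 or 3 (edgeR adjusted p = 0.106, 0.184, 0.223 and 0.220). For PARP14 it was lost without siRNA.1 replicate 2 (edgeR adjusted p = 0.0537).

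The other 4 genes did not pass that test. PARP9 differed by -0.13 with a 95% interval from -0.23 to -0.04 and an edgeR adjusted p of 0.0544, which passed without control replicate 1 or 2 (0.0430 and 0.0494). DTX3L differed by -0.09 (interval -0.18 to -0.0037, edgeR adjusted p = 0.202) and TIPARP by -0.03 (interval -0.13 to 0.08, edgeR adjusted p = 0.847). The interval of PARP11 was wide, from 0.06 to 0.73 around 0.39 (edgeR adjusted p = 0.131), at its low counts.

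The genes of closest pattern were sought over the 9 libraries among 11825 named genes whose average reached 1 FPKM, by the mean absolute difference in log2 CPM after centring on control. For PARP9 the nearest was IFI16, a nucleic acid sensor, at 0.0355, followed by NOLC1 (0.0532) and RAP1GAP2 (0.0555), where the median of all genes was 0.698. For DTX3L they were LGALS3BP, a secreted glycoprotein, at 0.0401, BTG1 and ZNF197. The nearest to PARP10 were TWNK, ODC1 and the ADP-ribosyltransferase PARP6 (0.0560), those to PARP14 MGLL, CDK6 and MRPS18C, and those to PARP12 MPP3, MDM4 and TMEM245. NFKB2, a subunit of NF-kB, was nearest to TIPARP at 0.0226, before NOB1 and SENP3. HPS3 (0.0156), EIF3L and NCAPD2 came nearest to ZC3HAV1, and FDXR (0.114), SWAP70 and RTN2 to PARP11. Within the 8 genes, DTX3L and PARP14 were the closest of 28 pairs at 0.0649, then PARP12 and TIPARP at 0.0867. PARP9 was 0.215 from its partner DTX3L. A nearest gene is the smallest of 11825 distances and so lies below the median of all genes by construction. That median was 0.281 for PARP12, 0.257 for TIPARP and 0.216 for ZC3HAV1, whose levels changed less than that of PARP9.

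PARP9, DTX3L and PARP14 share a stretch of chromosome 3 with PARP15, which had at most 2 counts in any library and was not tested. Of 7 other protein-coding genes tested within 200 kb of these 3, 1 rose and 1 fell with both siRNAs, which is near the background over all genes (15.0% higher and 15.2% lower with siRNA.1, 15.8% and 15.1% with siRNA.2). The one that rose, MIX23, had a log2 fold change of 0.49 ± 0.0879 (SE) with siRNA.1 and 0.60 ± 0.0863 with siRNA.2 (edgeR adjusted p = 3.04e-07 and 5.36e-11). The neighbour that fell, KPNA1, had -0.18 and -0.24 (edgeR adjusted p = 0.0200 and 0.000482). Both are named because their values were seen. ZC3HAV1 and PARP12 are 891.6 kb apart on chromosome 7, and the genes tested within 200 kb of PARP12 numbered 1, KDM7A, which was not called with either siRNA. Of 3 tested near ZC3HAV1, 1 was called higher with each siRNA and 0 lower, KIAA1549 with siRNA.1 (log2 fold change 0.34) and TTC26 with siRNA.2 (0.33). Of 2 tested near TIPARP, 1 was called higher with both and 0 lower, SSR3 (0.16 and 0.24). Nothing particular is read from so few genes, which are also named after their values were seen.

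**Figure D3:**
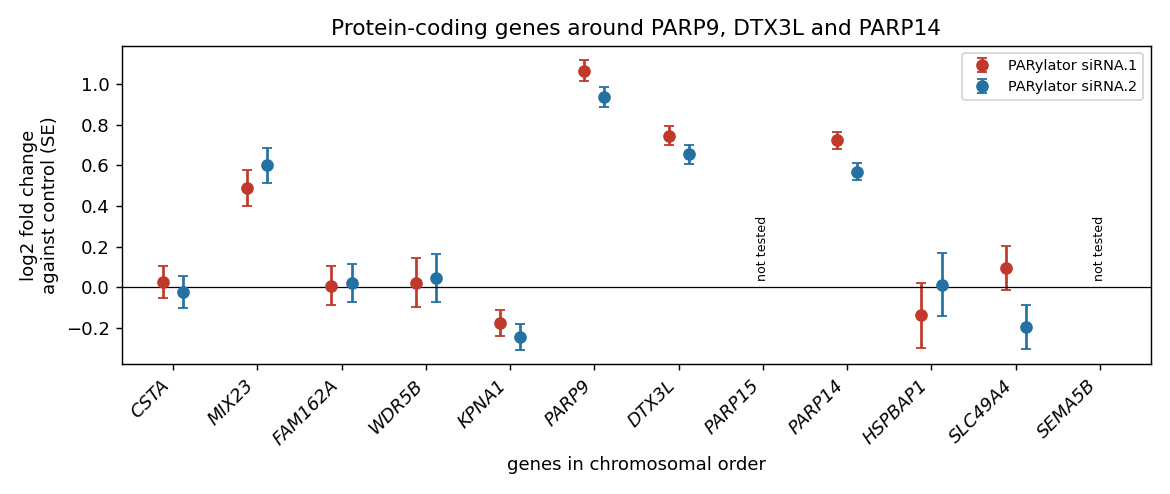
log2 fold change against control (vertical axis, with SE) of the protein-coding genes within 200 kb of PARP9, DTX3L and PARP14, in chromosomal order along the horizontal axis, for siRNA.1 and siRNA.2. PARP9, DTX3L and PARP14 have the highest values with siRNA.1, MIX23 (0.60) lies above PARP14 (0.57) with siRNA.2, and PARP15 and SEMA5B were not tested.

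The counts of the lists that follow stand beside a background over all tested genes of 15.0% called higher and 15.2% lower with siRNA.1, and 15.8% and 15.1% with siRNA.2. In lists of this size a count of 1 or 2 is near that background, and nothing particular to a list is read from it. Of 10 other ADP-ribosyltransferases, 9 were tested, and 3 were called higher and 2 lower with siRNA.1 and 4 higher and 2 lower with siRNA.2, with median log2 fold changes of 0.02 and 0.11. PARP6, also a mono-ADP-ribosyltransferase, was at 4.58, 8.75 and 7.33 FPKM on average in control, siRNA.1 and siRNA.2, and rose by a log2 fold change of 0.91 ± 0.0720 with siRNA.1 and 0.67 ± 0.0718 with siRNA.2 (edgeR adjusted p = 2.35e-34 and 6.10e-19). PARP3, which acts in DNA break repair, had 0.28 with siRNA.1 (edgeR adjusted p = 0.127) and rose by 0.45 with siRNA.2 (0.00448). PARP4, the vault PARP, fell by a log2 fold change of -0.20 and -0.26. TNKS2, a tankyrase, fell with siRNA.2 (-0.29 ± 0.0541) and had 0.02 with siRNA.1 (edgeR adjusted p = 5.15e-07 and 0.857). Between the siRNAs, 1 of the 9 was called higher with siRNA.2 than with siRNA.1 and 2 lower, against 6.10% and 6.06% of all genes. PARP1, named after its values were seen, fell with siRNA.1 (-0.12) and rose with siRNA.2 (0.22), a difference of 0.34 ± 0.0411 (edgeR adjusted p = 5.79e-14), and those lower were TNKS2 (-0.31 ± 0.0539) and PARP6 (-0.24 ± 0.0677).

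Of 8 genes that remove or bind ADP-ribose, 6 were tested, with 1 called higher and 1 lower under each siRNA and medians of -0.05 and -0.02. PARG, the glycohydrolase that degrades ADP-ribose chains, rose by 0.28 and 0.35 on the log2 scale (edgeR adjusted p = 0.00105 and 2.53e-05). OARD1, which removes terminal ADP-ribose, had -0.40 and -0.41 (edgeR adjusted p = 0.00187 and 0.00111). MACROD1 (0.04 and 0.21) and NUDT16 (-0.15 and -0.21) did not pass the test. Among 13 genes of NAD+ synthesis and use, 10 were tested, with 1 called higher and 2 lower under siRNA.1 and 1 higher and 3 lower under siRNA.2. NAMPT, the rate-limiting enzyme of NAD+ salvage, was at 17.6, 30.1 and 32.0 FPKM and rose by a log2 fold change of 0.75 ± 0.0380 and 0.85 ± 0.0379 (edgeR adjusted p = 8.81e-84 and 2.67e-108). NADSYN1, the last step of synthesis from nicotinic acid, had -0.34 and -0.46 (edgeR adjusted p = 1.13e-06 and 1.09e-11), while SLC25A51, the mitochondrial NAD+ carrier, and SARM1, an NAD+ hydrolase, did not pass the test.

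The 12 classic interferon-stimulated genes were all called higher with both siRNAs, with medians of 2.32 and 2.12, and their sum went from between 206.4 and 217.8 FPKM in control to between 1056 and 1086 with siRNA.1 and between 912.2 and 925.0 with siRNA.2. RSAD2 had the highest change (3.66 and 3.42), then IFIT1 (3.19 and 2.97), and HERC5 (1.29 and 1.12) and OAS2 (1.92 and 1.78) the lowest. The PARP9 log2 fold changes of 1.07 and 0.94 were below that of HERC5. With siRNA.2, 9 of the 12 were called lower than with siRNA.1 and 0 higher (6.06% and 6.10% of all genes), and the median difference was -0.19. These 12 and the 8 genes were picked knowing how they behave in these data, so their counts are not independent evidence of direction.

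The ZAP list of 8 genes, cofactors of ZC3HAV1 and a transcript that ZAP is known to destabilise, had 2 called higher and 2 lower with siRNA.1 and 2 higher and 3 lower with siRNA.2. The cofactors KHNYN (0.22 and 0.15) and TRIM25 (0.19 and 0.18) rose with both siRNAs, and the helicase DDX17 fell (-0.31 and -0.35). The ZAP target TNFRSF10D, a decoy receptor of TRAIL, was at 11.7, 6.37 and 6.11 FPKM on average and fell by a log2 fold change of -0.91 ± 0.0907 and -0.95 ± 0.0894 (edgeR adjusted p = 4.72e-22 and 6.37e-25).

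Of 8 genes of the aryl hydrocarbon receptor pathway, 2 were called higher and 3 lower with siRNA.1 and 1 higher and 2 lower with siRNA.2, with medians of 0.01 and 0.01. CYP1B1, a classic target of the receptor, was at 2.92, 5.64 and 4.90 FPKM and rose by a log2 fold change of 0.93 ± 0.0962 and 0.74 ± 0.0958 (edgeR adjusted p = 2.18e-20 and 2.06e-13). AHRR, the receptor repressor, had 0.34 and 0.45 at between 10 and 46 counts per library and did not pass the test. CYP1A1 of the same list, named after its values were seen, rose with siRNA.1 (0.49) and had 0.19 with siRNA.2 (edgeR adjusted p = 2.39e-06 and 0.115). ARNT, the partner of the receptor, fell by -0.47 and -0.53 on the log2 scale, and ALDH3A1 by -2.86 and -2.16 at no more than 18 counts in any library. Of 7 housekeeping genes, 1 was called higher and 4 lower with siRNA.1 and 1 higher and 2 lower with siRNA.2, with medians of -0.12 and -0.03. HPRT1 rose by 0.26 and 0.30, GUSB had -0.0026 and 0.10 and did not pass, and RPLP0 (-0.31 and -0.26) and ACTB (-0.15 and -0.20) fell with both. The log2 fold changes of TIPARP and PARP12 with siRNA.2 were thus of about the size of that of HPRT1.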

How the data were processed

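RNA-seq of 9 TE13 libraries was grouped by the labels' titles into control siRNA, PARylator siRNA.1 and PARylator siRNA.2, 3 each. Per the paper's methods, poly(A)+ RNA was sequenced on a NovaSeq, reads passed FastQC, were aligned with STAR to the human genome (GRCh38 per the submitters' processing notes) and were assigned to genes with featureCounts. For tests between groups the paper names DESeq2. Versions, annotation release and strand setting are not given in the sources used here. The authors deposited raw counts per gene beside FPKM, and recomputing FPKM from count, exonic length and library total returned the deposited values within 0.005. The position of all 8 genes was the same in GENCODE release 44.

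Counts were tested with edgeR 4.0.16 in R 4.3.3 (TMM, quasi-likelihood, 1 fit of the 3 groups, no covariates) over the 21395 genes averaging 0.1 FPKM or more, and p-values were adjusted by Benjamini-Hochberg with a threshold of 0.05. All 8 genes passed this filter. SE is the absolute log2 fold change over the square root of F. Alternatives were DESeq2 1.42.0, limma 3.58.1 on log2(FPKM + 0.1) and on log2(FPKM + 1), other scaling and filters, the 6 libraries of a comparison, a replicate block and each library left out. Scripts used Python 3.11.15 and were tested on simulated data. Members and lists were chosen with earlier results of these data known. Named genes are the 8, up to the 2 highest and 2 lowest by mean fold change of each list, and the 3 nearest genes to each of the 8. Promoter motifs were matched by letters. Protein sequences are not used here, and 1 of the gene lists is not reported here. The precision of a value rests on its counts, which were between 79 and 174 for PARP11 and 1030 or more for the others.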

Additional observations from a re-analysis of the deposited data

Results flagged for a closer look

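The direct test of siRNA.2 against siRNA.1 called 3 of the 8 genes lower and 1 higher, where 6.06% of all tested genes were called lower and 6.10% higher. The calls of PARP10 and ZC3HAV1 held in all 18 alternatives, that of PARP14 in 15 and that of PARP12 in 10. The effects of the siRNAs against control thus differed in size for PARP10 and ZC3HAV1, and less firmly for PARP14 and PARP12. The log2 differences were -0.27 for PARP10, -0.15 for PARP12, -0.15 for PARP14 and 0.22 for ZC3HAV1, by edgeR's quasi-likelihood test with adjusted p-values of 1.60e-05, 0.0424, 0.00323 and 3.46e-05. For PARP10, PARP12 and PARP14 the rise over control was smaller with siRNA.2, and ZC3HAV1 lay closer to control with siRNA.2. Groups of 3 libraries were not searched for outlying libraries.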

How the results depend on the processing

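Of 432 values of the 8 genes under 18 alternatives and 3 comparisons, 408 kept their side of the threshold, 15 lost the call and 9 gained one. Of the called values, 0 changed sign. TIPARP between the siRNAs, which was not called, ranged from -0.07 to 0.01 and is counted among the 408 although its sign was not kept throughout. Against control, all calls with siRNA.1 held in every alternative, though limma on log2(FPKM + 1) moved PARP11 from -0.89 to -0.45. With siRNA.2, PARP11 was lost by limma with either pseudocount (-0.45 and -0.27) and without control replicate 2 or siRNA.2 replicate 2, and ZC3HAV1 was called by DESeq2 alone. Between the siRNAs, PARP9 was called by DESeq2, limma, RLE scaling, filterByExpr and the 6-library fit, while limma lost PARP12 and PARP14 and the unfiltered table lost PARP12. Leaving out 1 library gave between 2 and 5 members called there, where 4 were called with all libraries, and 2 came without siRNA.1 replicate 2. The cause was not tested. With the replicate block, 8, 7 and 3 members were called for siRNA.1, siRNA.2 and their difference, PARP12 being lost in the last (edgeR adjusted p = 0.0682). Same-numbered libraries had correlations of their deviations between -0.19 and 0.11, and other pairs between -0.08 and 0.18, so the numbers were not taken to pair them. Over all genes, the block called 6215, 6358 and 2342 genes, against 6472, 6614 and 2603. The limit by depth bears on PARP11 and LINC00885, at the lowest counts.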
